A study of Rattus norvegicus with 16 samples.

Results

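Htr5b (ENSRNOG00000002549) and Htr1b (ENSRNOG00000013042) encode serotonin receptors and were followed over 4 subfields of the rat hippocampus, namely the dentate gyrus (DG) and the pyramidal fields CA1, CA2 and CA3. They are 2 of the 32883 genes in the count table and 2 of the 34 genes that the study listed as markers of CA1. They were chosen by their measured CA1 levels, so every comparison with CA1 is given below as a description without a test, and tests are given only among CA2, CA3 and DG. Both passed the filter on low counts (more than 10 counts summed over the libraries), as did 17174 genes in all.

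The libraries were made from male Wistar rats without treatment, 3 months old. Laser capture microdissection (LCM), which cuts chosen cells out of a stained section, was used on the granular layer of DG and on the pyramidal layer of the other subfields, and the total RNA was sequenced. The study used 4 rats, and every subfield had 4 libraries, with between 3216512 and 11933279 counts each. Some CA2 and DG libraries nearly repeated each other, as described below, and their rats are not known. The labels give no genetic change and no treatment for any of the 16 libraries, which differ by subfield and replicate number.

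Serotonin reaches the hippocampus through axons of the raphe nuclei of the brainstem and acts there on several G protein-coupled receptors. The 5-HT1B receptor, the product of Htr1b, couples to Gi/o proteins, lowers cyclic AMP and is known mainly from axon terminals, where it reduces transmitter release. The 5-HT5B receptor, the product of Htr5b, is one of the least studied members of the family, and in humans its gene is a pseudogene. Receptor mRNA lies mostly in the cell body, so that the RNA of a captured layer can belong to a receptor protein placed elsewhere.

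The promoters are shown because both genes have a CA1-high pattern, so that a reader can compare what their start regions hold. Each runs from 250 bases before to 50 bases after the annotated start in RefSeq on the assembly GRCr8, which is not the Rnor6 build used for the counts, and is printed 5′ to 3′ along the gene. Both genes lie on the minus strand, Htr5b at chr13:35252537-35252836 and Htr1b at chr8:91414766-91415065. Capitals mark each match to the CCAAT box (CCAAT, which on the other strand reads ATTGG) and to the GC box (GGGCGG, which on the other strand reads CCGCCC).
Htr5b: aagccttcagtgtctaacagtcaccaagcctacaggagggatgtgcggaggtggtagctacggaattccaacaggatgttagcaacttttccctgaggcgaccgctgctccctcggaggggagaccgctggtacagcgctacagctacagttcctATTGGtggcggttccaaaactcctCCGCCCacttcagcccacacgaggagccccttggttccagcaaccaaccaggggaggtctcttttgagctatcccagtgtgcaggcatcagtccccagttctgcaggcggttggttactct
Htr1b: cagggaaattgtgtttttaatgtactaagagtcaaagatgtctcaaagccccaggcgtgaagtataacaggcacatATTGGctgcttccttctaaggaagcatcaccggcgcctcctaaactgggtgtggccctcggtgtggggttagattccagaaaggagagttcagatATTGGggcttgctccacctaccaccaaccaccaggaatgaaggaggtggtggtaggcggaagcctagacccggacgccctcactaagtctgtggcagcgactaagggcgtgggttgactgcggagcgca

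The CCAAT box had 1 match in the Htr5b promoter, beginning at position -95 from the start, and 2 in the Htr1b promoter, at -174 and -79, all on the other strand. It was present in 37.5% of the 33469 RefSeq promoters of the same length. The GC box was found once in Htr5b, at -71, and was not found in Htr1b, and 33.1% of all promoters held it. The searches, all over both strands, included the E-box CANNTG (72.1% of promoters), the TATA box TATAAA (14.2%) and the cyclic AMP response element core TGACG (21.2%), and neither receptor promoter held a match to these letters. GC content was 57.0% in Htr5b and 53.7% in Htr1b, against a median of 51.7%. Each had 11 CpG dinucleotides, against a median of 7. These matches describe the letters of this window and are not binding sites.

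Before the levels, the libraries were compared within each subfield, since some of them stood apart or repeated each other. CA2 replicates 2 and 4 had a chi-square of 1.0 per degree of freedom over 12995 genes (chi-square test over genes, p = 0.456) and did not differ beyond the sampling noise. The value for DG replicates 2 and 4 was 1.04 over 13766 genes (chi-square test over genes, p = 0.00176), slightly above that noise, whereas the other pairs within a subfield had between 2.8 and 43.5. The counts of each of these pairs were summed and taken as 1 library, which left 4 libraries each for CA1 and CA3 and 3 each for CA2 and DG. The named markers followed the labels. Wfs1, a protein of the endoplasmic reticulum that marks CA1 pyramidal neurons, had at least 610 CPM in CA1 and at most 134 CPM elsewhere, Amigo2, a CA2 adhesion protein, had at least 96.7 CPM in CA2, and Prox1, a transcription factor of granule cells, had at least 283 CPM in DG. The 14 genes of the study's CA3 list together had between 273.9 and 304.2 CPM in the CA3 libraries, CA3 replicate 2 among them.

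Htr5b was most abundant in CA1, lower in CA2 and DG, and lowest in CA3. Levels are given as CPM, which are counts scaled to a common library size, here by TMM factors. In CA1 it had 55.1, 54.8, 56.3 and 45.8 CPM in replicates 1 to 4, with a mean of 53.0 ± 4.86 CPM (SD, n = 4). In CA2 it had 6.88 CPM in replicate 1, 16.3 CPM in the summed replicates 2 and 4 and 12.4 CPM in replicate 3, with a mean of 11.8 ± 4.73 CPM (SD, n = 3). The CA1 libraries were all above the CA2 libraries, and the CA2 libraries were widely spread.

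In CA3 Htr5b had 1.48, 6.56, 1.16 and 1.46 CPM in replicates 1 to 4, from 12, 76, 11 and 9 counts, with a mean of 2.67 ± 2.6 CPM (SD, n = 4). In DG it had 6.19 CPM in replicate 1, 5.91 CPM in the summed replicates 2 and 4 and 8.02 CPM in replicate 3, with a mean of 6.71 ± 1.15 CPM (SD, n = 3). CA3 replicate 2 was far above the other CA3 libraries and within the range of DG, while the other 3 CA3 libraries were below every DG library. CA2 and DG overlapped, since CA2 replicate 1 was below DG replicate 3.

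Htr1b was likewise most abundant in CA1 and lower in CA2, and it was near the limit of detection in most CA3 and DG libraries. In CA1 it had 31.4, 36.8, 42.5 and 33.4 CPM in replicates 1 to 4, with a mean of 36.0 ± 4.89 CPM (SD, n = 4). In CA2 it had 3.75 CPM in replicate 1, 9.49 CPM in the summed replicates 2 and 4 and 6.69 CPM in replicate 3, with a mean of 6.64 ± 2.87 CPM (SD, n = 3). The groups did not overlap, and CA2 replicate 1 was again the lowest CA2 library.

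In CA3 Htr1b had 0.371, 4.92, 0.423 and 0.486 CPM in replicates 1 to 4, with a mean of 1.55 ± 2.25 CPM (SD, n = 4). These were 3, 57, 4 and 3 counts, so that 3 of the CA3 libraries stood at or just above the 3 counts that a count of 0 allows, which were worth between 0.195 and 0.928 CPM depending on the library. In DG it had 0.729 CPM in replicate 1, 1.56 CPM in the summed replicates 2 and 4 and 0.958 CPM in replicate 3, with a mean of 1.08 ± 0.429 CPM (SD, n = 3). CA3 replicate 2 was above every DG library and the other 3 CA3 libraries were below every DG library, so the order of CA3 and DG depends on that library: the mean was higher in CA3, and the median, 0.455 CPM in CA3 against 0.958 CPM in DG, was higher in DG.

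**Figure D1:**
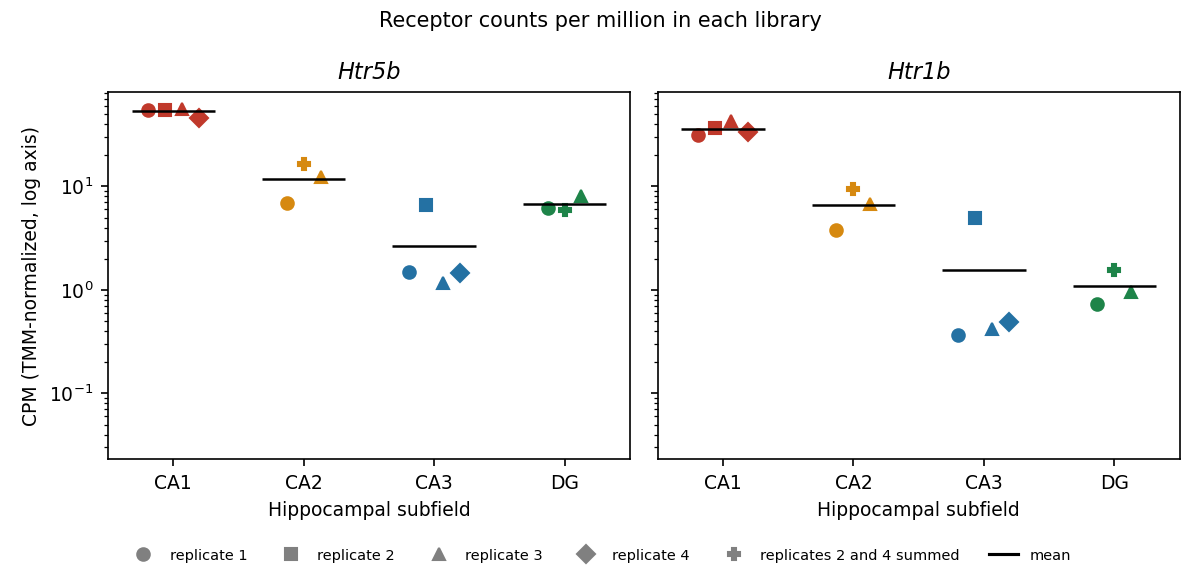
Each point is the level of Htr5b (left) or Htr1b (right) in 1 library, in TMM-normalized CPM on a log axis, by subfield, with the mean as a line. The CA1 points lie highest for both genes, at 45.8 CPM or more for Htr5b and 31.4 CPM or more for Htr1b, and CA3 replicate 2 stands above the other CA3 points at 6.56 CPM and 4.92 CPM.

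The CA1 comparisons chose these genes and are given as sizes only, as log2 fold changes of the first subfield over the second from edgeR's fit. For Htr5b they were 2.14 in CA1vsCA2 (SE 0.31, 4.40-fold), 4.18 in CA1vsCA3 (SE 0.33, 18.1-fold) and 3.0 in CA1vsDG (SE 0.34, 7.98-fold). For Htr1b they were 2.40 in CA1vsCA2 (SE 0.40, 5.29-fold), 4.31 in CA1vsCA3 (SE 0.43, 19.9-fold) and 4.90 in CA1vsDG (SE 0.51, 29.8-fold). For both receptors CA2 was therefore the nearest subfield to CA1, and the most distant was CA3 for Htr5b and DG for Htr1b. Without CA3 replicate 2 the CA1vsCA3 values were 5.29 for Htr5b and 6.37 for Htr1b, which for Htr1b turned the order of CA3 and DG. The study asked a marker to exceed a log2 fold change of 2, by its own DESeq2 values. In the edgeR fit used here, by the lowest CA1 comparison, Htr1b was 17th and Htr5b 27th of the 34 genes. The genes nearest to 2 in the edgeR fit were Diaph3, at 2.01, and Galr1 and Crabp1, both at 2.0 after rounding.

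In CA2vsCA3, a comparison that the selection did not use, both receptors were higher in CA2 than in CA3. The selection did use the level of each of these subfields against CA1. The log2 fold change of Htr5b in CA2vsCA3 was 2.04 (SE 0.37, 4.12-fold, adjusted p = 0.000908 by the quasi-likelihood test of edgeR, Benjamini-Hochberg over all genes tested). That of Htr1b was 1.91 (SE 0.50, 3.76-fold, edgeR adjusted p = 0.018). Thus 2 of the 2 receptors passed an adjusted p under 0.05, against 7.65% of all genes tested in either direction and 4.16% higher in CA2. For Htr5b every CA2 library was above every CA3 library, whereas for Htr1b CA2 replicate 1 was below CA3 replicate 2.

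The CA2vsCA3 difference grew without CA3 replicate 2, to 3.15 for Htr5b (edgeR adjusted p = 5.61e-07) and 3.97 for Htr1b (edgeR adjusted p = 1.56e-06). Without CA3 replicate 1, named ca3n2 in the count table, it was 1.84 for Htr5b (edgeR adjusted p = 0.00297) and 1.60 for Htr1b (edgeR adjusted p = 0.0424). The Htr1b call was lost without CA2 replicates 2 and 4 (1.55, edgeR adjusted p = 0.14), without CA2 replicate 3 (1.93, edgeR adjusted p = 0.0547) and without CA3 replicate 3 (1.56, edgeR adjusted p = 0.0699), as well as with DESeq2 (2.06, adjusted p = 0.078).

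In CA2vsDG the receptors had unlike results. Htr1b was higher in CA2, with a log2 fold change of 2.49 (SE 0.58, 5.63-fold, edgeR adjusted p = 0.00186), and the lowest CA2 library was above the highest DG library. For Htr5b the log2 fold change was 0.86 (SE 0.37, 1.81-fold), which did not pass (edgeR adjusted p = 0.0745). In this comparison 35.4% of all genes tested were called and 18.9% were called higher in CA2, so that 1 call among 2 genes is not far from the background. The value of Htr5b passed without CA2 replicate 1 (1.08, edgeR adjusted p = 0.0255) and without CA3 replicate 2 (0.86, edgeR adjusted p = 0.00538), a library that enters this comparison through the shared estimate of the spread, and without CA2 replicates 2 and 4 it fell to 0.54.

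In CA3vsDG Htr5b was lower in CA3, with a log2 fold change of -1.18 (SE 0.40, 2.27-fold higher in DG, edgeR adjusted p = 0.0224). Htr1b had 0.58 (SE 0.66, 1.5-fold, edgeR adjusted p = 0.524), a difference smaller than its error. Of all genes tested, 40.2% were called here and 19.7% were called higher in DG, so 1 call among 2 genes is again near the background. Without CA3 replicate 2 the values were -2.29 for Htr5b (edgeR adjusted p = 1.02e-05) and -1.48 for Htr1b (edgeR adjusted p = 0.0368), so that the direction of Htr1b was reversed and both receptors were lower in CA3. The Htr5b call was lost without CA3 replicate 1 (-1.01, edgeR adjusted p = 0.0521), CA3 replicate 3 (-0.91, edgeR adjusted p = 0.0761), CA3 replicate 4 (-1.03, edgeR adjusted p = 0.0532) or DG replicate 3 (-1.06, edgeR adjusted p = 0.0814).

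**Figure D2:**
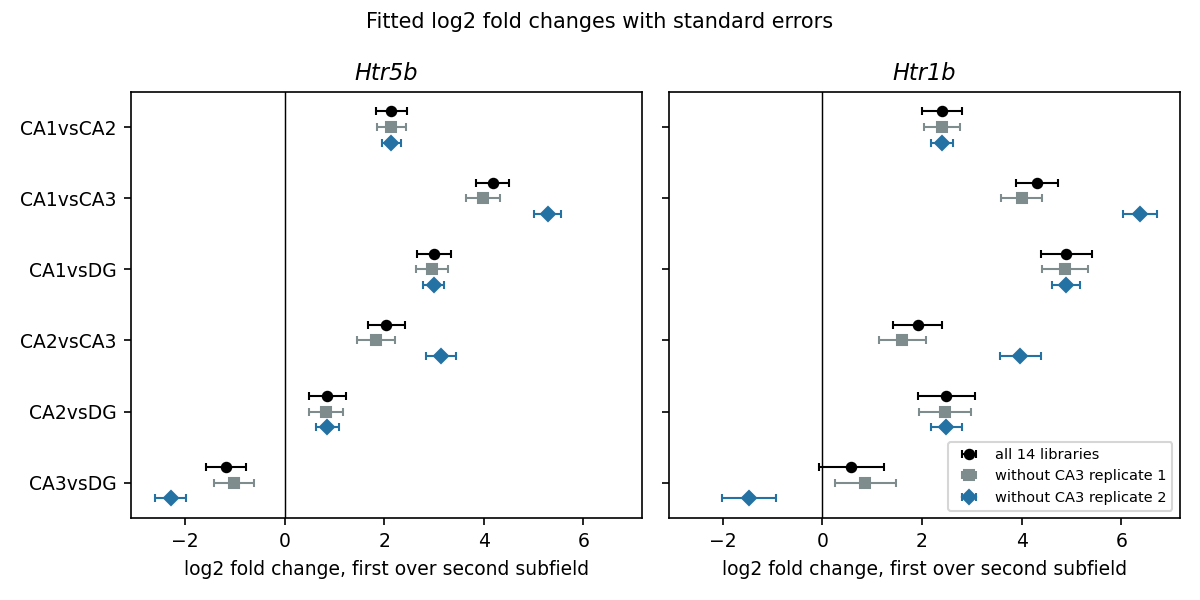
Points are log2 fold changes of the first over the second subfield with their standard errors as bars, for Htr5b (left) and Htr1b (right), in all 14 libraries, without CA3 replicate 1 and without CA3 replicate 2. The values with CA3 in them move away from the others when CA3 replicate 2 is left out, and that of Htr1b in CA3vsDG crosses 0, from 0.58 to -1.48.

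The levels in order were CA1, CA2, DG and CA3 for Htr5b. The difference of its neighbours CA2 and DG missed the threshold in the main fit (edgeR adjusted p = 0.0745). With CA2 and DG alone it passed (edgeR adjusted p = 0.0242), so that this call depends on the fit. For Htr1b the order of the means was CA1, CA2, CA3 and DG, in which CA3 and DG did not differ beyond their spread. The comparisons share libraries, so their values are not independent of each other. In such bulk samples, fewer cells that carry a receptor and less of its RNA per cell cannot be told apart.

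The balance of the receptors was also compared within each library, as the Htr1b counts in percent of the counts of both genes, a measure in which library size cancels. In CA1 this share was 36.3%, 40.2%, 43.0% and 42.2% in replicates 1 to 4, with a mean of 40.4 ± 3.01% (SD, n = 4). In CA2 it was 35.3% in replicate 1, 36.8% in the summed replicates 2 and 4 and 35.1% in replicate 3. In DG it was 10.5% in replicate 1 (95% Wilson interval 4.17% to 24.1%), 20.9% in the summed replicates 2 and 4 (14.4% to 29.2%) and 10.7% in replicate 3 (5.5% to 19.7%). All DG libraries were thus below all CA2 and CA1 libraries, with a mean of 14 ± 5.93% (SD, n = 3) in DG and 35.7 ± 0.919% (SD, n = 3) in CA2.

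In CA3 the share of Htr1b was 20.0% in replicate 1 (95% Wilson interval 7.05% to 45.2%), 42.9% in replicate 2 (34.8% to 51.4%), 26.7% in replicate 3 (10.9% to 52.0%) and 25.0% in replicate 4 (8.89% to 53.2%). CA3 replicate 2, with the most counts, had a share within the range of CA1, and the other 3 had too few counts to be placed between CA2 and DG. The intervals cover counting error only. Over CA2, CA3 and DG a two-sided exact permutation test over 4200 assignments of 10 libraries gave p = 0.0267. It was chosen after the values were seen and weighs every library alike, whatever its counts. Its p is therefore a description and no support for a difference. CA1 was left out because it chose the genes. The test moves libraries freely across replicate numbers and takes no account of libraries from the same rat. Without CA3 replicate 2 the exact permutation p was 0.00714. It rose above 0.05 without CA2 replicate 1 (exact p = 0.0548), CA2 replicates 2 and 4 (exact p = 0.0579), CA2 replicate 3 (exact p = 0.0548), DG replicate 1 (exact p = 0.0762) or DG replicate 3 (exact p = 0.0754).

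**Figure D3:**
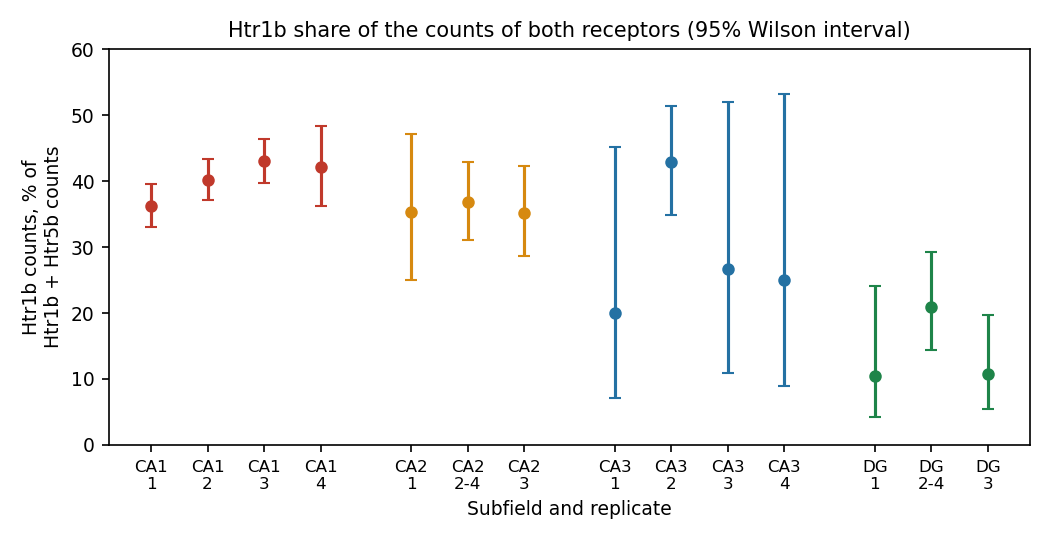
Points are the Htr1b counts in percent of the summed Htr1b and Htr5b counts in each library, with 95% Wilson intervals as bars, by subfield and replicate. The DG points, between 10.5% and 20.9%, lie below the CA2 points, between 35.1% and 36.8%, and the bars are longest in the CA3 libraries with few counts.

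Other CA1 genes moved with the receptors across the CA2 and CA3 libraries. Wfs1 had 8.65, 106, 13.4 and 13.8 CPM in CA3 replicates 1 to 4, against 610 CPM or more in CA1. CA3 replicate 2 was the high library, as it was for the receptors.

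The other 32 genes of the study's CA1 list had a summed level between 1896 and 2148 CPM in CA1, and between 103.6 and 119.8 CPM in DG. In CA3 replicates 1 to 4 the sum was 120.8, 324.1, 144.6 and 125.8 CPM, and 22 of the 32 genes had their highest CA3 level in replicate 2, against 5, 2 and 3 in replicates 1, 3 and 4. In CA2 it was 228.7 CPM in replicate 1, 489.7 CPM in the summed replicates 2 and 4 and 354 CPM in replicate 3. This order of the CA2 libraries was also that of Htr5b, Htr1b and Wfs1. Wfs1 in CA2 had 53.6 CPM in replicate 1, 134 CPM in the summed replicates 2 and 4 and 86.8 CPM in replicate 3. The 14 genes of the CA2 list, by contrast, had between 42.01 and 61.43 CPM in CA3, with 54.49 CPM in replicate 2. The part of CA1 genes in the receptor levels of CA2 and of CA3 replicate 2 was not tested.

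**Figure D4:**
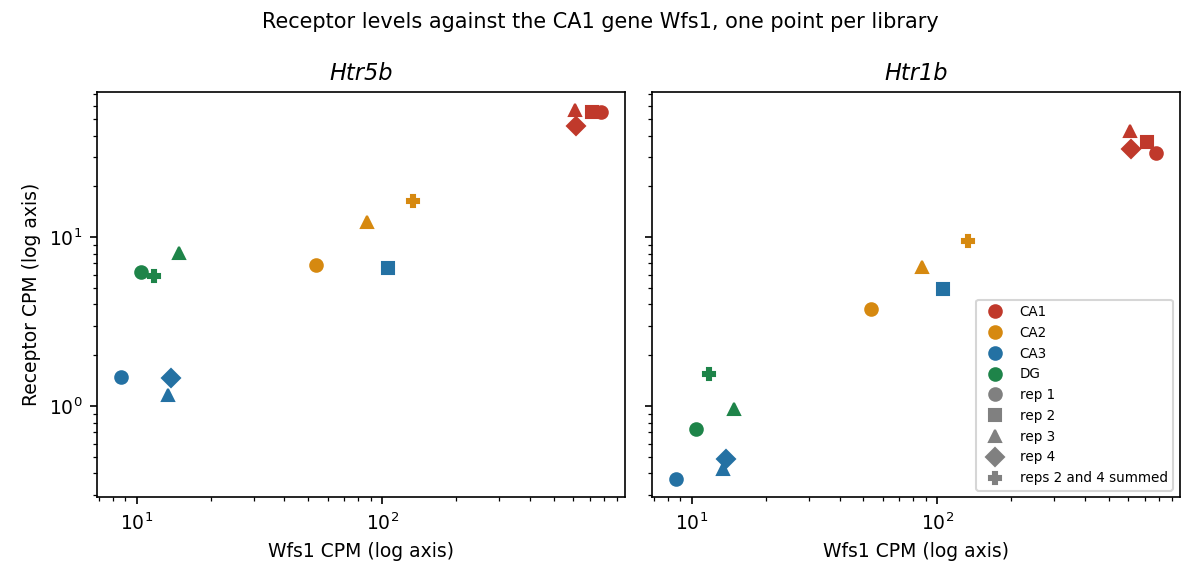
Each point is 1 library, with the CPM of Wfs1 on the horizontal axis and that of Htr5b (left) or Htr1b (right) on the vertical axis, both log axes, and colours for subfields. On the Wfs1 axis CA3 replicate 2, at 106 CPM, lies within the range of the CA2 points, which run from 53.6 to 134 CPM. On the Htr5b axis it lies below every CA2 point, at 6.56 CPM against 6.88 CPM or more. The DG points of Htr5b lie above those of the other CA3 libraries at like levels of Wfs1.

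The genes most alike in pattern were found by Pearson's r of log2 CPM over the 14 libraries, which share 4 rats and 4 subfields, among 13042 genes of at least 1 CPM on average. Of these, 209 have a symbol here and were themselves listed as markers of a subfield. For Htr5b the nearest were Htr1b (r = 0.95), Arhgap12 (r = 0.94), RGD1563354 (r = 0.93), the chemokine receptor Ackr2 (r = 0.92) and Wfs1 (r = 0.91). Of the 5 nearest to Htr1b, 4 are given here, and they were Wfs1 (r = 0.98), Arhgap12 (r = 0.97), Htr5b (r = 0.95) and the heparan sulfate enzyme Ndst4 (r = 0.95). The correlation includes the CA1 libraries that chose both receptors, and the genes with a symbol are subfield markers, so it describes the selection and is no separate result. All of the genes named are CA1 list genes, and among all 13042 genes Htr1b was 9th for Htr5b while Htr5b was 14th for Htr1b.

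At the other end, among the genes with a symbol, Htr5b was least like the CA3 list genes Fxyd7 (r = -0.84), RT1-M6-1 (r = -0.83) and Col8a2 (r = -0.81). Among the same genes, Htr1b was least like the DG list genes Unc13c (r = -0.88), Calml4 (r = -0.80) and Unc5d (r = -0.79). Genes without a symbol can be less alike than these. Fxyd7, a regulator of the sodium pump, averaged 74.9 ± 8.99 CPM over the CA3 libraries (SD, n = 4) and 5.31 ± 1.02 CPM over the CA1 libraries (SD, n = 4). Unc13c, a synaptic vesicle priming protein, averaged 28.4 ± 4.26 CPM over the DG libraries (SD, n = 3) and 1.31 ± 0.600 CPM over the CA1 libraries (SD, n = 4). Fxyd7 was thus highest in CA3, where Htr5b had its lowest mean.

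The serotonin pathway could be followed only through genes with a symbol. Of 14 serotonin receptors listed, 2 had an identifier, and these are Htr5b and Htr1b, while the other 12, the 9 genes of serotonin synthesis, transport and breakdown and the 14 Gi/o protein genes were not analysed here. Markers of interneurons, glia, endothelial cells and serotonergic neurons had no identifier either and were not analysed here, so the cell makeup of the captured layers was not tested. Of 12 effectors of such receptors 1 was measured, and of 18 regulators 2, all of them from the study's DG list and so chosen for high DG levels. Adcy1, an adenylyl cyclase that makes cyclic AMP, averaged 81.9 ± 17.2 CPM over CA1 libraries (SD, n = 4), 135 ± 18.8 CPM over CA2 libraries (SD, n = 3), 47.4 ± 21.2 CPM over CA3 libraries (SD, n = 4) and 866 ± 93.8 CPM over DG libraries (SD, n = 3). It was higher in CA2 than in CA3, as both receptors were, by a log2 fold change of 1.52 (SE 0.24, edgeR adjusted p = 0.000171). Unlike the receptors, Adcy1 was lower in CA1 than in CA2 (log2 fold change -0.73 in CA1vsCA2, SE 0.23, edgeR adjusted p = 0.0411) and had its highest mean in DG.

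Rgs9 and Rgs10 speed the return of G proteins to their resting state. Rgs9 averaged 2.92 ± 0.231 CPM over CA1 libraries (SD, n = 4), 2.24 ± 1.40 CPM over CA2 libraries (SD, n = 3), 0.686 ± 0.198 CPM over CA3 libraries (SD, n = 4) and 19.4 ± 2.38 CPM over DG libraries (SD, n = 3). In CA2vsCA3 it had a log2 fold change of 1.82 (SE 0.38, edgeR adjusted p = 0.00303). Its means among the pyramidal subfields fell in the order CA1, CA2 and CA3, as did those of the receptors. In CA1vsCA2, however, its log2 fold change was 0.30 (SE 0.30, edgeR adjusted p = 0.597), so CA1 and CA2 were not told apart for Rgs9. Rgs10 averaged 12 ± 0.745 CPM over CA1 libraries (SD, n = 4), 20.1 ± 2.03 CPM over CA2 libraries (SD, n = 3), 23.0 ± 3.40 CPM over CA3 libraries (SD, n = 4) and 235 ± 30.6 CPM over DG libraries (SD, n = 3). For CA2vsCA3 the log2 fold change of Rgs10 was -0.20 (SE 0.14, edgeR adjusted p = 0.499). Of Adcy1, Rgs9 and Rgs10, 2 of 3 were thus called higher in CA2 than in CA3, beside the 4.16% of all genes tested.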

How the data were processed

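The authors prepared stranded total RNA libraries, sequenced paired ends, used STAR for alignment to the Rnor6 build and deposited unnormalized counts per Ensembl gene. The counting program and its strand setting are not given in the sources used here, so overlapping genes are uncertain. The deposited comparison tables hold the authors' own DESeq2 fold changes and p-values and were not used. Symbols came from the 288 identifiers that the study's marker lists pair with a name.

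Members, gene lists and tests were chosen with earlier results of these data known. Named were the receptors, listed pathway genes with an identifier, label markers, the 5 most and 3 least alike genes, and the genes nearest the marker limit, of which some are not reported here. Genes with over 10 summed counts were fitted in R 4.3.3 with edgeR 4.0.16 (limma 3.58.1): TMM, 1 coefficient per subfield over 14 libraries, quasi-likelihood F-test. SE is the log2 fold change over the square root of F. Log2 CPM had a prior count of 2. The labels give each replicate of a subfield its own number and the study 4 rats, but the rat of the repeated CA2 and DG libraries is not known.

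Alternatives were RLE size factors, DESeq2 1.42.0, no filter, filterByExpr, all 16 columns, a replicate block, the compared subfields alone, each library left out, and Spearman's correlation for likeness. Added after the data were seen were leaving out CA3 replicates 1 and 2 together, thinning to 3216512 counts, likeness without CA3 replicate 2, and the share test with its leave-one-out values. On simulated counts for CA3vsDG edgeR recovered 191 of 200 changed genes among 16898, with 7 wrong calls, and DESeq2 191 with 18. The changed genes were drawn from those above 1 CPM on average and were raised or lowered by a fixed factor. The recovery therefore does not carry over to the receptor calls. Python 3.11.15, numpy 2.4.6, pandas 2.3.3, scipy 1.17.1 and matplotlib 3.10.9 served the rest.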

Additional observations from a re-analysis of the deposited data

Results flagged for a closer look

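In CA3, replicate 2 stood farther from the other 3 libraries than Dixon's 95% critical value allows for 4 samples, with 6.56 CPM of Htr5b and 4.92 CPM of Htr1b. The same library stood apart for Wfs1 at 106 CPM and for the summed level of the other 32 genes of the CA1 list at 324 CPM. These values come from 1 library and are not independent of each other. In CA1, replicate 4 stood apart for Htr5b, at 45.8 CPM, and it has the smallest total of all libraries. Chance alone picks about 1 in 20 such groups, and 12 values were examined in CA1 and CA3, of which 5 passed. CA2 and DG, with 3 libraries each, were not examined.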

How the results depend on the processing

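Of 144 values of the tested receptor comparisons under the alternatives, 126 kept both their direction and their side of the threshold. The 144 values of the CA1 comparisons, which have no test, all kept their direction, and 4 of them moved by more than the spread between replicates. Exceptions from the choice of libraries were as follows, each as the range over the fits without 1 library: Htr5b 3.91 to 5.29 in CA1vsCA3, 0.54 to 1.08 in CA2vsDG and -2.29 to -0.91 in CA3vsDG, and Htr1b 3.98 to 6.37 in CA1vsCA3, 1.55 to 3.97 in CA2vsCA3 and -1.48 to 1.01 in CA3vsDG. Htr1b in CA3vsDG was reversed without CA3 replicate 2 (-1.48) and without CA3 replicates 1 and 2 together (-1.40, edgeR adjusted p = 0.0956), where CA1vsCA3 was 5.37 for Htr5b and 6.30 for Htr1b and CA2vsDG of Htr5b 0.84 (edgeR adjusted p = 0.00642).

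Htr5b in CA2vsDG also passed without a filter on low counts (0.82, edgeR adjusted p = 0.00911), with all 16 columns (0.97, edgeR adjusted p = 0.019) and with CA2 and DG alone (0.83, edgeR adjusted p = 0.0242). The 16 columns count the repeated libraries of CA2 and DG apart, which makes the spread of these subfields too small, so that pass is no independent support. Htr1b in CA2vsCA3 missed the threshold with DESeq2 (2.06, adjusted p = 0.078) and with CA2 and CA3 alone (1.93, edgeR adjusted p = 0.0861). The cause was not tested. Of the 5 genes most like Htr1b, 3 were also among the 5 by Spearman's correlation.

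The fit with a replicate block took the replicate number as the block over 16 columns, with the repeated CA2 and DG libraries counted apart. There Htr5b in CA2vsDG was 1.0 (edgeR adjusted p = 0.00307). It passed with these 16 columns without the replicate block too, and with the block and both repeated pairs left out it was 0.41 (edgeR adjusted p = 0.38). The called genes numbered 3850 in CA1vsCA2 and 2615 in CA2vsCA3 with the replicate block over 16 columns, 2858 and 1737 over 16 columns without it, 3014 and 1569 with the block and both repeated pairs left out, and 2458 and 1313 with 14 libraries. The replicate block over 16 columns changed no receptor call against the 16 columns without it. Deviations of same-numbered libraries of different subfields correlated between 0.04 and 0.46 (median 0.32), against -0.46 to 0.27 (median -0.09) for other numbers. Of 12 libraries, 10 correlated best with one of their own number. The names of the count columns also share their numbers across subfields. These hints were not taken as a pairing, and the main fit has no term for the replicate number. Alternatives for the number of called serotonin receptors were not run, since 12 of the 14 have no identifier here. In CA3 and DG depth limits Htr1b, with 3 to 4 counts in 3 CA3 libraries.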
